A study of Mus musculus with 15 samples.

Results

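The genes described here encode the proteins that copy chromosomal DNA, from the helicase that opens the origin to the ligase that joins the finished strands. They were chosen as a list of 40 genes, each read by the probe set assigned to it alone. A probe set for 1 gene was found for 40 of the 40, and none of them had several, so the members were 40 of the 19938 genes measured. RNA came from epithelial cells of the mouse ventral prostate, strain FVB, and filled 15 arrays, with 3 arrays for each of 5 groups. Primary cultures with no transduced gene were the controls. The other 4 groups, called Myc, NeuT, Ras and Src here, held stable lines transformed by c-myc, by neuT (an active mutant of Erbb2, a growth factor receptor), by ha-ras or by v-src. The series' design text counts 3 lines for each oncogene, and the sources used here do not state the vector or promoter of the transduced genes. Cells of all groups were untreated and harvested at 85 to 90% confluence. The lines grew in DMEM with 10% serum, whereas the controls grew in a primary epithelial medium and were moved to DMEM with serum only for the last night. Transformation, establishment as a line and culture medium thus cannot be told apart in any comparison with control. No label says that the arrays of a group came from separate animals or cultures, so p-values cover the spread among these arrays alone, part or all of which may be technical.

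DNA replication starts when the origin recognition complex, with Cdc6 and Cdt1, loads the ring of Mcm2 to Mcm7 onto DNA, a step called licensing that geminin (Gmnn) blocks outside its window. The kinase Cdc7, Cdc45, the GINS complex and Mcm10 then turn that ring into a moving helicase, behind which primase and the polymerases alpha, delta and epsilon make new DNA. Replication factor C loads the sliding clamp, replication protein A covers single strands, Fen1 and Lig1 finish the lagging strand, and nucleosomes are rebuilt by chromatin assembly factor 1. Many of these genes are targets of E2F transcription factors and are transcribed as cells enter S phase, so in cultured epithelium their transcripts are used as a sign of cycling cells. In RNA of whole cultures, a larger share of cells in S phase and more RNA per cell cannot be told apart.

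The arrays as a whole set the limits of what follows. Values are log2 expression as deposited, with array medians over all probe sets from 6.19 to 6.32, and the number of arrays limits the precision. The median of all gene values was 6.47, and levels below it may lie near the unmeasured background. Pairs of arrays correlated across genes, which are not independent replicates, with r from 0.994 to 0.996 in Myc, NeuT and Src and from 0.980 to 0.987 in Ras. The control pairs ran from 0.955 to 0.997. Control array 3 carried kidney RNA: 12 of 12 kidney tubule markers were at or above the median gene value there against 1 to 2 of 12 in the other 14 arrays, and their summed log2 level was 113.27 against 64.99 to 67.22. The proximal tubule transcript Kap was at 12.10 in that array and at 4.78 and 4.83 in controls 1 and 2. Endothelial markers were also raised there, with 4 of 7 at or above the median gene value against 0 to 1 elsewhere. The labels were checked against epithelial markers. Of 6 general epithelial markers, 6 were at or above the median gene value in the control, Myc and NeuT arrays, 5 in Src and 0 to 1 in Ras, so the Ras arrays lacked the markers of the labelled cell type. Basal epithelial markers were at or above it for 6 of 6 in control and Src, 3 to 4 in Myc, 3 in NeuT and 1 to 2 in Ras. Erbb2 was higher than control in NeuT (log2 difference 1.70 ± 0.13, SE from limma, adjusted p = 4.27e-07). In the group labelled Myc the signal of the Myc probe set was below control (-0.92 ± 0.19, limma adjusted p = 0.00207). Src differed by 0.05 ± 0.09 in Src (adjusted p = 0.743), and Hras was not analysed here. Whether the Myc and Src probe sets read the transduced copies was not tested, so these values cannot check the labels. Directions for Myc, Ras and Src therefore rest on the labels alone.

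The replication genes rose together in the transformed lines. limma fitted the 5 group means for all 19938 genes, and a gene was called, and said to have risen or fallen, at a Benjamini-Hochberg adjusted p under 0.05 over all genes. Against the controls, 40 of 40 members rose in the mean of the 4 oncogene groups and 0 fell, where 15.4% of all genes measured rose. Their median log2 difference was 1.11, with a range from 0.47 (Cdt1) to 1.85 (Prim1), beside a median of 0.04 over all genes. The adjusted p of the members lay between 2.47e-09 and 0.00102 in limma. In 38 of the 40 members all 12 line arrays were above all 3 control arrays, a pattern that 5.44% of all genes showed. The exceptions were the licensing factor Cdt1, whose lowest line array was 0.05 below the highest control (a gap of -0.05), and the kinase Cdc7, with a gap of -0.09.

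**Figure D1:**
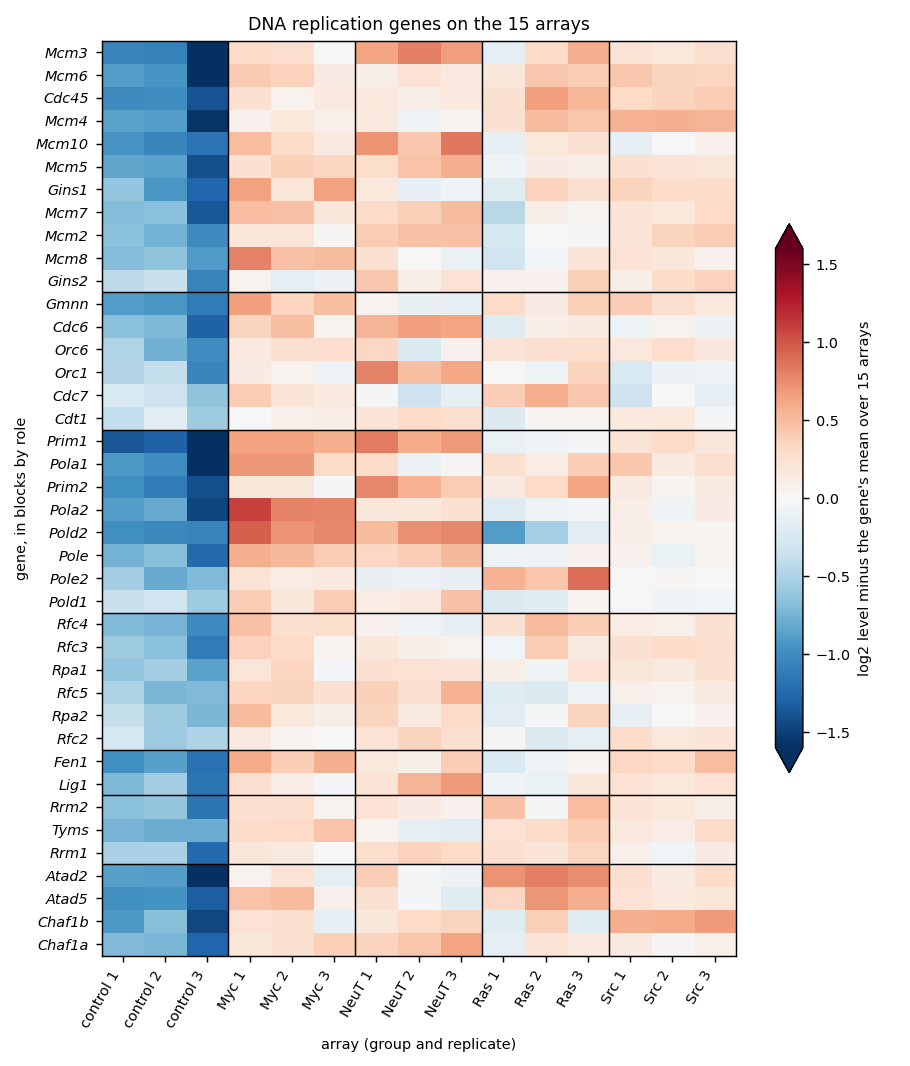
Level of each of the 40 replication genes (rows, in blocks by role) on each of the 15 arrays (columns), as the log2 level minus the gene's mean over the 15 arrays, with blue below and red above that mean. The 3 control arrays are blue for nearly all genes and control array 3 is the deepest blue, while Pold2 is also blue in the 3 Ras arrays and Chaf1b and Mcm4 are reddest in Src.

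Control array 3 enters every comparison with control. The member counts at the adjusted p alone, the member medians, and most pooled differences of members given array by array are therefore also given without it. Not given without it are the pooled differences of Mcm4 and Chaf1b, the differences of Cdc7, and the counts that require a fold of at least 2. All 40 members were lower in it than the mean of controls 1 and 2, and in 36 it was the lowest control. The median difference was -0.42 (range -0.85 to -0.02), against -0.06 over all genes and -0.51 for 17 mitosis genes. The list's summed log2 level over 40 genes was 290.84 in control array 3, while the other controls reached 308.56 at the highest and the lines ran from 337.69 to 352.26. Without control array 3, 40 of 40 members still rose in the pooled lines, where 12.3% of all genes did, with a median of 0.93 and a lowest value of 0.38. The plot of pooled differences with and without that array shows the same for each gene: as many members rose without the array that carried kidney RNA, by smaller amounts.

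**Figure D2:**
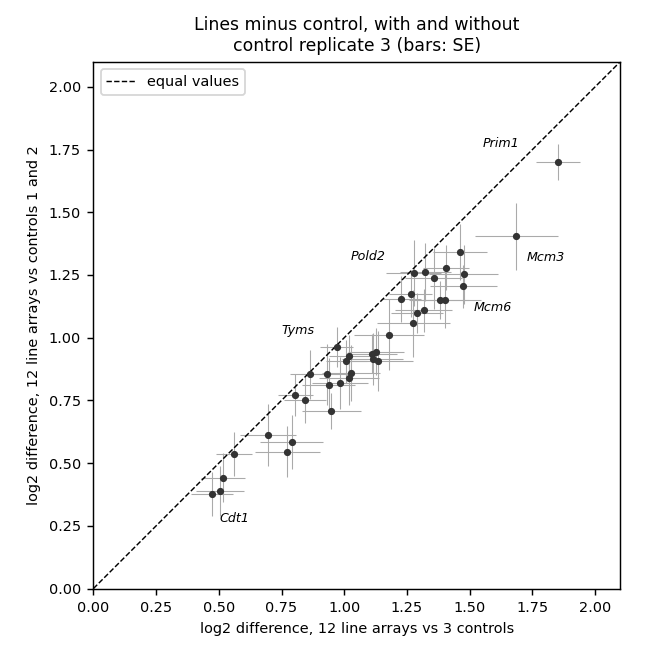
Pooled log2 difference (lines minus control) of each of the 40 members, with all 3 control arrays (horizontal axis) and without control array 3 (vertical axis), with SE bars and a dashed line of equality. All points lie above 0 on both axes and at or below the line, and the median is 1.11 on the first axis and 0.93 on the second.

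With a fold of at least 2 required as well, 25 members rose in the pooled lines (1.71% of all genes), 26 in Myc (2.86%), 24 in NeuT (2.8%), 20 in Ras (3.1%) and 21 in Src (1.51%). These counts use all 3 control arrays and were not worked out without control array 3. Without it the member medians were 0.93 in the pooled lines and 0.99, 0.99, 0.80 and 0.90 in the 4 groups. All of these lie below a log2 difference of 1, which is 2-fold.

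Each oncogene group showed the rise on its own, and the 4 comparisons share the same control arrays. In Myc 40 of 40 members rose (median log2 difference 1.17), where 15.9% of all genes rose. In NeuT 39 of 40 rose (median 1.18), with 15.2% of all genes. In Ras the count was 39 of 40 at a median of 0.99, with 13.3% of all genes. In Src it was 39 of 40 at 1.03, with 14.2% of all genes. No member fell in any group, and the medians over all genes were 0.03, 0.02, 0.02 and 0.06. Cdc7 did not pass in NeuT (0.24 ± 0.12, limma adjusted p = 0.189) or in Src (0.25 ± 0.12, adjusted p = 0.142), and Pold1, the catalytic subunit of polymerase delta, did not pass in Ras (0.29 ± 0.11, adjusted p = 0.0693). Pold1 was called there with median centring of the arrays (0.37, adjusted p = 0.0299), with quantile normalization (0.39, adjusted p = 0.0127) and without dim genes (adjusted p = 0.0491). Without control array 3 the counts were 39, 39, 38 and 37, with medians of 0.99, 0.99, 0.80 and 0.90, beside 14.4%, 13.5%, 12.1% and 11.6% of all genes. Calls that ended without that array were Gins2 in Myc (0.32, adjusted p = 0.0637), Cdt1 in Ras (0.24, adjusted p = 0.121), Orc1 in Src (0.29, adjusted p = 0.117) and Pold1 in Src (0.31, adjusted p = 0.0716), all by limma. Other single arrays also ended calls: Gins2 in Myc without Myc array 1 (0.49, adjusted p = 0.077), Cdt1 in Ras without control array 1 or Ras array 2 or 3 (0.29 to 0.33, adjusted p up to 0.0953), Rfc2 in Ras without control array 2 or Ras array 1 (0.27, adjusted p = 0.0662 and 0.0632), Orc1 in Src without Src array 2 or 3 (0.47 and 0.46, adjusted p = 0.09 and 0.0966) and Pold1 in Src without Src array 1 (0.36, adjusted p = 0.0632).

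**Figure D3:**
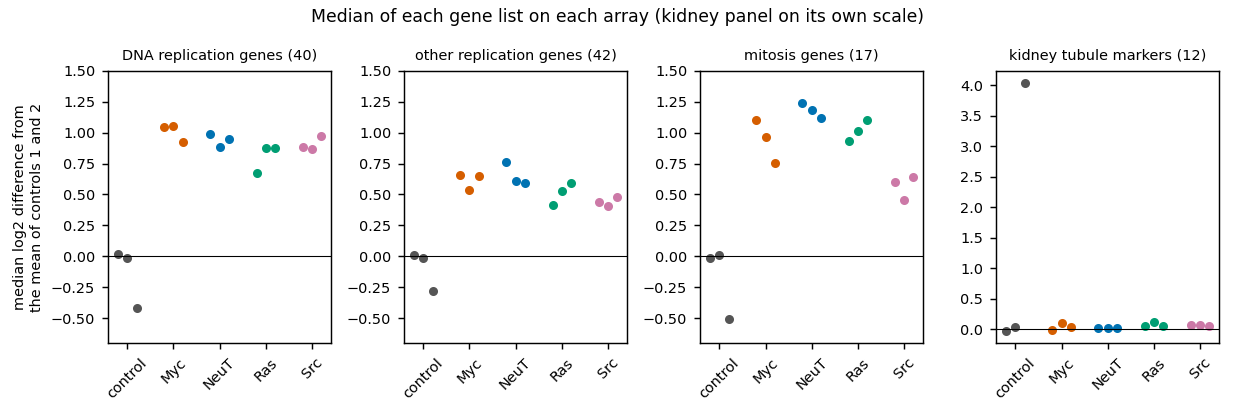
Median log2 difference from the mean of control arrays 1 and 2 on each array (points, by group), in 1 panel each for the 40 replication genes, 42 other replication genes, 17 mitosis genes and 12 kidney tubule markers (own scale). Line arrays lie at 0.67 to 1.05 for the replication genes, and control array 3 is at -0.42 there and at 4.04 for the kidney markers.

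Promoter sequence describes these genes further. Many of them are E2F targets, as said above, and the sequences to search for were set down with the gene lists, so matches are not independent evidence. RefSeq promoters (build GRCm38.p6) were given for 32 of the 40 members, in 38 windows, and the 250 bases before each start were searched on both strands for the E2F spellings TTTGGCGC, TTTCCCGC, TTTGCCGC and TTTCGCGC. A match was found in 7 windows of 7 genes (18.4% of the member windows), and in 611 of all 32851 windows (1.86%). The 7 genes were Cdc6, Mcm5, Mcm6, Mcm7, Orc1, Pola1 and Rfc3. The CCAAT box, searched by the letters CCAAT on both strands, was in 20 of 38 member windows (52.6%) and in 33.8% of all windows, and no E2F match overlapped one. A match describes the letters and is neither a bound site nor a cause. The 200 bases before the start of 4 of these genes are shown, from 5′ to 3′ on the gene's own strand with the E2F spellings in capitals, because they hold the densest matches (Mcm5 and Mcm6) and those of the proteins that mark the origin (Cdc6 and Orc1).
Mcm5 (chr8:75109309-75109508, plus strand): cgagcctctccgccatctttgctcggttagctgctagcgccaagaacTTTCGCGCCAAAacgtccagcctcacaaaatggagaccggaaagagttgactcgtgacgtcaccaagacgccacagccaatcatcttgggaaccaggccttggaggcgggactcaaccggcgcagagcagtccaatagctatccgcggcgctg
Mcm6 (chr1:128359706-128359905, minus strand): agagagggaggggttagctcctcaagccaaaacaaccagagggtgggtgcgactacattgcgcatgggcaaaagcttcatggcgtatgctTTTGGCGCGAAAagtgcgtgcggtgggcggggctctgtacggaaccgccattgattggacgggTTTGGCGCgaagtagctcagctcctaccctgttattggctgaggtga
Cdc6 (chr11:98907951-98908150, plus strand): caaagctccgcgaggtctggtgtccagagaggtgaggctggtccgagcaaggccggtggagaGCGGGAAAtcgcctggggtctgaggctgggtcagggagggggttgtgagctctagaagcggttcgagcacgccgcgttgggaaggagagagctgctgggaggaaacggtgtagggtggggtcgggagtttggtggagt
Orc1 (chr4:108579254-108579453, plus strand): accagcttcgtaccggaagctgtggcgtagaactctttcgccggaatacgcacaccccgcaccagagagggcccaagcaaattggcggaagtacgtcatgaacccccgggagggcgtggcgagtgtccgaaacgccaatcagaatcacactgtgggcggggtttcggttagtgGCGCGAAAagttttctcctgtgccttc
Mcm6 held 3 matches, of which the pair whose first bases lie 110 and 106 bases before the start overlap on opposite strands, and the other lies 47 bases before it. Mcm5 held an overlapping pair at 153 and 149 bases. The single matches of Cdc6 and Orc1 lay 138 and 27 bases before the start. The 4 genes rose by 1.29 (Mcm5), 1.47 (Mcm6), 1.11 (Cdc6) and 0.79 (Orc1) on the log2 scale in the pooled lines, within the range of the other members.

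The helicase genes rose strongly. The 11 members of this role had pooled log2 differences from 0.77 to 1.69 and a median of 1.29 (1.10 without control array 3). Mcm3, a subunit of the Mcm2 to Mcm7 ring, rose most among them. It was at 7.67, 7.65 and 6.81 in the controls, 9.02, 8.99 and 8.72 in Myc, 9.36, 9.53 and 9.39 in NeuT, 8.57, 9.03 and 9.31 in Ras, and 8.94, 8.90 and 9.00 in Src. All line arrays were above all controls, NeuT was the highest group, and control array 3 was the lowest array. The pooled difference was 1.69 ± 0.17 (adjusted p = 2.95e-06), or 1.40 without control array 3. The other ring subunits rose by 1.01 (Mcm2), 1.38 (Mcm4), 1.29 (Mcm5), 1.47 (Mcm6) and 1.13 (Mcm7). Mcm4 was at 8.52, 8.48 and 7.81 in the controls, 9.44, 9.54 and 9.46 in Myc, 9.53, 9.31 and 9.41 in NeuT, 9.62, 9.87 and 9.81 in Ras, and 9.93, 9.94 and 9.92 in Src. Src was its highest group, as it was for Mcm6, and the Src arrays did not overlap those of any other group.

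The factors that activate the ring followed it. Cdc45, which joins the ring in the active helicase, rose by 1.41, Mcm10, which helps to start unwinding, by 1.32, and Mcm8, a relative of the ring subunits that acts in recombination, by 0.93. Gins1 of the GINS complex rose by 1.18. Gins2, another subunit of that complex, had the smallest rise of the role. Its values were 8.16, 8.22 and 7.51 in the controls, 8.63, 8.42 and 8.49 in Myc, 9.01, 8.69 and 8.82 in NeuT, 8.65, 8.65 and 8.96 in Ras, and 8.69, 8.87 and 8.95 in Src. The Myc arrays were nearest to controls 1 and 2, without overlap, and control array 3 was the lowest array. The pooled difference was 0.77 ± 0.13 (adjusted p = 0.000353), or 0.55 without control array 3.

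The origin and licensing genes rose less, with a median of 0.86 over 6 members (0.70 without control array 3) and a range from 0.47 to 1.23. Geminin, the inhibitor of licensing, rose most: Gmnn was at 7.72, 7.69 and 7.49 in the controls, 9.27, 8.97 and 9.10 in Myc, 8.67, 8.50 and 8.49 in NeuT, 8.92, 8.75 and 8.99 in Ras, and 9.01, 8.88 and 8.79 in Src. The lines stood well above the controls, and the NeuT arrays were the lowest of the lines. Its pooled difference was 1.23 ± 0.08 (adjusted p = 7.55e-08; 1.16 without control array 3). Cdt1, the loading factor that geminin binds, rose least of all members. It was at 6.52, 6.74 and 6.34 in the controls, 6.91, 6.996 and 7.03 in Myc, 7.12, 7.23 and 7.17 in NeuT, 6.69, 6.96 and 6.95 in Ras, and 7.06, 7.09 and 6.89 in Src. Ras array 1 lay below control array 2, and the pooled difference was 0.47 ± 0.08 (adjusted p = 0.000548; 0.38 without control array 3).

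Orc1, the largest subunit of the origin recognition complex, differed among the lines. It was at 7.02, 7.11 and 6.46 in the controls, 7.63, 7.55 and 7.44 in Myc, 8.29, 7.97 and 8.11 in NeuT, 7.50, 7.41 and 7.86 in Ras, and 7.25, 7.40 and 7.43 in Src. NeuT was the highest group and did not overlap any other. The pooled difference was 0.79 ± 0.13 (adjusted p = 0.000226; 0.59 without control array 3), and in NeuT alone 1.26 ± 0.16 (adjusted p = 3.29e-05). Orc6, the smallest subunit, rose by 0.94 and Cdc6, the loading ATPase, by 1.11.

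Cdc7, the kinase that fires licensed origins, was the single member whose mean over the arrays lay below the median gene value. It was at 6.08, 5.997 and 5.69 in the controls, 6.73, 6.53 and 6.48 in Myc, 6.30, 5.99 and 6.19 in NeuT, 6.73, 6.91 and 6.76 in Ras, and 5.999, 6.33 and 6.20 in Src. NeuT and Src overlapped the controls, while Myc and Ras did not. Its differences from control were 0.66 in Myc (adjusted p = 0.00079) and 0.87 in Ras (adjusted p = 7.14e-05), beside the 0.24 and 0.25 of NeuT and Src that did not pass. Levels this low may lie near background, so the size of these differences is unsure.

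Polymerase and primase genes held both the largest rise and the widest differences among oncogenes. The 8 members had a median of 1.30 (1.18 without control array 3) and a range from 0.52 to 1.85. Prim1, the catalytic subunit of primase that makes the RNA primer, was at 8.52, 8.60 and 8.10 in the controls, 10.54, 10.54 and 10.46 in Myc, 10.72, 10.49 and 10.57 in NeuT, 9.78, 9.83 and 9.88 in Ras, and 10.11, 10.18 and 10.07 in Src. Every line array was above every control, with Myc and NeuT highest and Ras lowest among the lines. The pooled difference of 1.85 ± 0.09 (adjusted p = 2.47e-09) is a 3.61-fold rise, and it was 1.70 without control array 3. Its partner Prim2 rose by 1.46 and Pola1, the catalytic subunit of polymerase alpha, by 1.48. Pola2, the accessory subunit of polymerase alpha, was at 6.78, 6.84 and 6.19 in the controls, 8.75, 8.45 and 8.43 in Myc, 7.84, 7.84 and 7.89 in NeuT, 7.45, 7.58 and 7.63 in Ras, and 7.76, 7.60 and 7.79 in Src. Myc stood above all other arrays, and the pooled difference was 1.32 ± 0.11 (adjusted p = 8.74e-07; 1.11 without control array 3).

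The accessory subunits of polymerase delta and polymerase epsilon lay at opposite ends of the lines in Ras. Pold2, the accessory subunit of polymerase delta, was at 6.97, 6.92 and 6.89 in the controls, 8.90, 8.66 and 8.71 in Myc, 8.45, 8.68 and 8.72 in NeuT, 7.05, 7.40 and 7.78 in Ras, and 8.06, 8.005 and 7.99 in Src. Ras array 1 lay just above the controls, and no other line array was as low as any of the Ras arrays. Against control the differences were 1.83 ± 0.14 in Myc (adjusted p = 3.71e-07), 1.69 in NeuT (adjusted p = 8.32e-07), 1.09 in Src (adjusted p = 6.13e-05) and 0.48 in Ras (adjusted p = 0.0188). The call in Ras was lost with array weights (0.29, adjusted p = 0.0877), when only those groups were fitted (adjusted p = 0.123) and without Ras array 3 (0.30, adjusted p = 0.0738). Pold1 was at 7.07, 7.10 and 6.86 in the controls, 7.81, 7.61 and 7.83 in Myc, 7.54, 7.57 and 7.90 in NeuT, 7.19, 7.24 and 7.47 in Ras, and 7.44, 7.36 and 7.38 in Src. Ras arrays 1 and 2 were the lowest of the lines for this subunit too, and the pooled difference was 0.52 ± 0.09 (adjusted p = 0.00039; 0.44 without control array 3). Pole2, the accessory subunit of polymerase epsilon, ran the other way: 7.03, 6.77 and 6.87 in the controls, 7.81, 7.71 and 7.73 in Myc, 7.47, 7.49 and 7.45 in NeuT, 8.14, 8.02 and 8.48 in Ras, and 7.59, 7.60 and 7.58 in Src. The Ras arrays were the highest and did not overlap those of any other group. The pooled difference was 0.86 ± 0.08 (adjusted p = 1.77e-06; 0.85 without control array 3). Pole, the catalytic subunit of polymerase epsilon, rose by 1.11 and had its highest mean in Myc and its lowest in Ras.

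**Figure D4:**
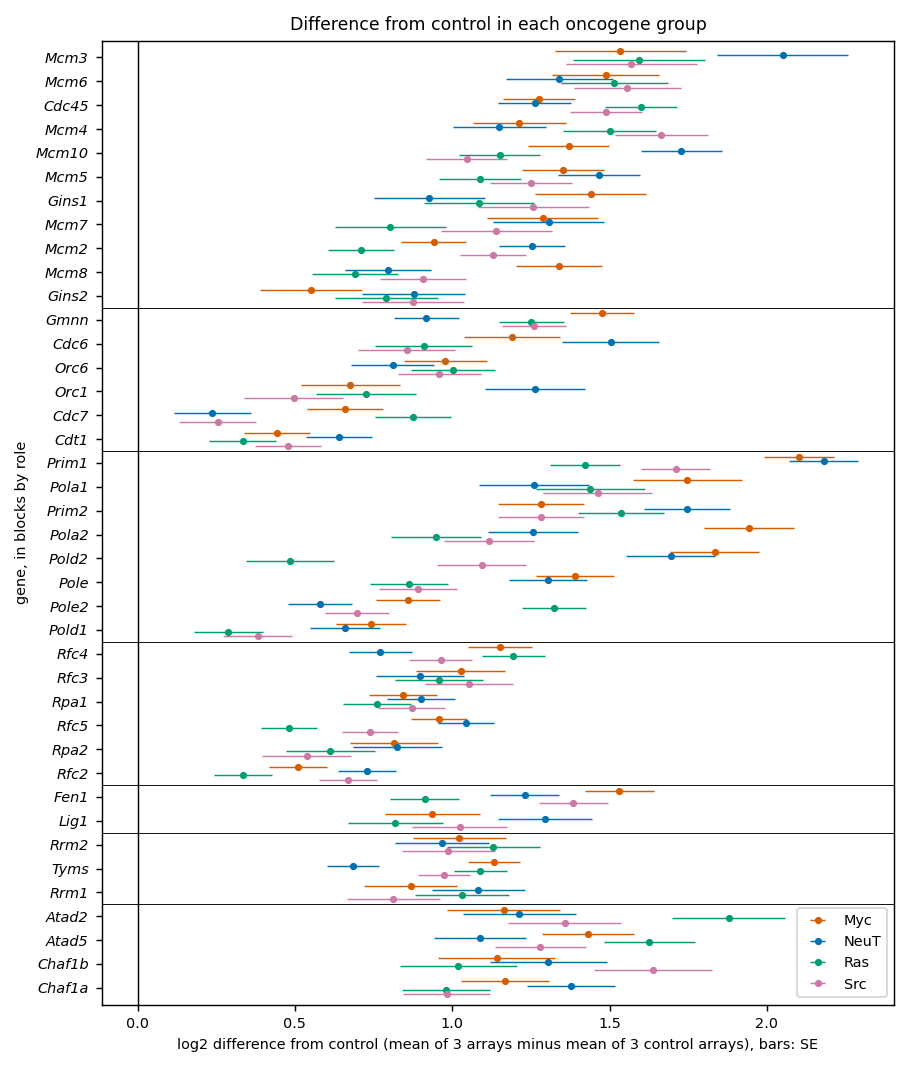
Log2 difference from control (mean of 3 arrays minus mean of 3 controls, bars SE) of each of the 40 members in each of the 4 oncogene groups (colours), in blocks by role. All points are above 0, and Pold2 has the widest range, from 0.48 in Ras to 1.83 in Myc.

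Clamp loader and single-strand binding genes had the lowest median of the roles with more than 3 members, 0.82 over 6 members. Without control array 3 their median was 0.76, and the origin and licensing genes were lower, at 0.70. Rfc4, a small subunit of replication factor C, rose most of them. It was at 7.66, 7.62 and 7.36 in the controls, 8.83, 8.62 and 8.65 in Myc, 8.43, 8.29 and 8.23 in NeuT, 8.61, 8.87 and 8.75 in Ras, and 8.48, 8.45 and 8.61 in Src. NeuT was the lowest line group, and the pooled difference was 1.02 ± 0.08 (adjusted p = 3.69e-07; 0.93 without control array 3). Rfc5, another small subunit, was at 7.88, 7.65 and 7.66 in the controls, 8.71, 8.74 and 8.62 in Myc, 8.76, 8.64 and 8.93 in NeuT, 8.18, 8.14 and 8.31 in Ras, and 8.46, 8.44 and 8.51 in Src. Here Ras was the lowest line group, and the difference was 0.81 ± 0.07 (adjusted p = 1.04e-06; 0.77 without control array 3). Rfc2 rose least of the role, at 7.50, 7.18 and 7.27 in the controls, 7.91, 7.79 and 7.77 in Myc, 7.99, 8.11 and 8.03 in NeuT, 7.78, 7.55 and 7.62 in Ras, and 8.06, 7.93 and 7.96 in Src. Ras came closest to the controls without overlap, and the difference was 0.56 ± 0.07 (adjusted p = 3.83e-05; 0.54 without control array 3). Rfc3 rose by 0.98, and the subunits Rpa1 and Rpa2 of replication protein A by 0.84 and 0.70.

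The enzymes that finish the lagging strand rose in every line. Fen1, the nuclease that removes primer flaps, was at 7.25, 7.36 and 7.04 in the controls, 8.82, 8.62 and 8.79 in Myc, 8.40, 8.32 and 8.62 in NeuT, 7.98, 8.14 and 8.26 in Ras, and 8.55, 8.53 and 8.71 in Src. Ras was the lowest line group, and the pooled difference was 1.26 ± 0.09 (adjusted p = 1.06e-07; 1.18 without control array 3). Lig1, the ligase that seals the fragments, was at 7.77, 7.93 and 7.31 in the controls, 8.75, 8.59 and 8.47 in Myc, 8.70, 9.02 and 9.16 in NeuT, 8.42, 8.38 and 8.66 in Ras, and 8.71, 8.65 and 8.72 in Src. The line groups overlapped one another in part and none overlapped the controls, with a difference of 1.02 ± 0.12 (adjusted p = 1.5e-05; 0.84 without control array 3).

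The nucleotide supply genes rose by nearly the same amount with all 3 controls, 0.95 to 1.03, but by 0.71 to 0.96 without control array 3. Rrm2, the regulated subunit of ribonucleotide reductase, was at 10.07, 10.11 and 9.59 in the controls, 11.01, 11.02 and 10.80 in Myc, 10.98, 10.87 and 10.81 in NeuT, 11.21, 10.72 and 11.24 in Ras, and 10.97, 10.92 and 10.85 in Src. All 4 line groups overlapped, and the pooled difference was 1.03 ± 0.12 (adjusted p = 1.23e-05; 0.86 without control array 3). The other subunit, Rrm1, was at 9.58, 9.57 and 8.86 in the controls, 10.27, 10.24 and 10.10 in Myc, 10.37, 10.47 and 10.41 in NeuT, 10.37, 10.30 and 10.43 in Ras, and 10.17, 10.05 and 10.22 in Src. Control array 3 was the lowest by a wide margin, and the difference was 0.95 ± 0.12 (adjusted p = 2.53e-05), or 0.71 without it. Tyms, which makes thymidylate, rose by 0.97 (0.96 without control array 3).

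The chromatin and ATPase genes had a median of 1.32 over 4 members (1.10 without control array 3). Atad2, a bromodomain ATPase, was at 7.97, 7.96 and 7.21 in the controls, 8.89, 9.06 and 8.68 in Myc, 9.23, 8.82 and 8.74 in NeuT, 9.56, 9.64 and 9.58 in Ras, and 9.11, 8.98 and 9.13 in Src. Ras was the highest group and overlapped no other, and the pooled difference was 1.40 ± 0.14 (adjusted p = 4.04e-06; 1.15 without control array 3). Chaf1a, the large subunit of chromatin assembly factor 1, was at 7.61, 7.57 and 7.04 in the controls, 8.50, 8.55 and 8.68 in Myc, 8.66, 8.75 and 8.94 in NeuT, 8.17, 8.53 and 8.47 in Ras, and 8.45, 8.32 and 8.39 in Src. Its rise of 1.13 ± 0.11 (adjusted p = 3e-06; 0.94 without control array 3) was the smallest of the role. Chaf1b, the middle subunit, rose by 1.28 and was highest in Src, at 8.64, 8.65 and 8.73, against 7.87, 8.44 and 7.86 in Ras. It was at 7.13, 7.37 and 6.60 in the controls, 8.29, 8.31 and 7.93 in Myc, and 8.24, 8.37 and 8.41 in NeuT. Atad5, which unloads the sliding clamp, rose by 1.36.

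Differences among the 4 oncogenes were found for part of the members. An F test over the 4 line groups called 22 of 40 members, beside 42.1% of all genes, so the share among the members (55%) was to be read against that background. Without control array 3 the count was 31, beside 46.5% of all genes. With a range of at least 2-fold required as well, Pold2 alone passed, beside 11.2% of all genes. By role the F test called 7 of 8 polymerase and primase genes, 4 of 11 helicase genes, 4 of 6 origin and licensing genes, 3 of 6 clamp loader and binding genes, 1 of 2 flap and ligation genes, 1 of 3 nucleotide supply genes and 2 of 4 chromatin genes. The smallest adjusted p belonged to Pold2 (9.8e-06), Pole2 (0.000171), Prim1 (0.000173), Pola2 (0.000286) and Rfc5 (0.00056). The highest line mean was in NeuT for 18 members, Myc for 10, Ras for 8 and Src for 4, and the lowest in Ras for 17, NeuT for 14, Src for 6 and Myc for 3. This tally ranks all 40 members, also those that the F test did not call. No tally over all genes stands beside it, so it is not read as a trait of the members.

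**Figure D5:**
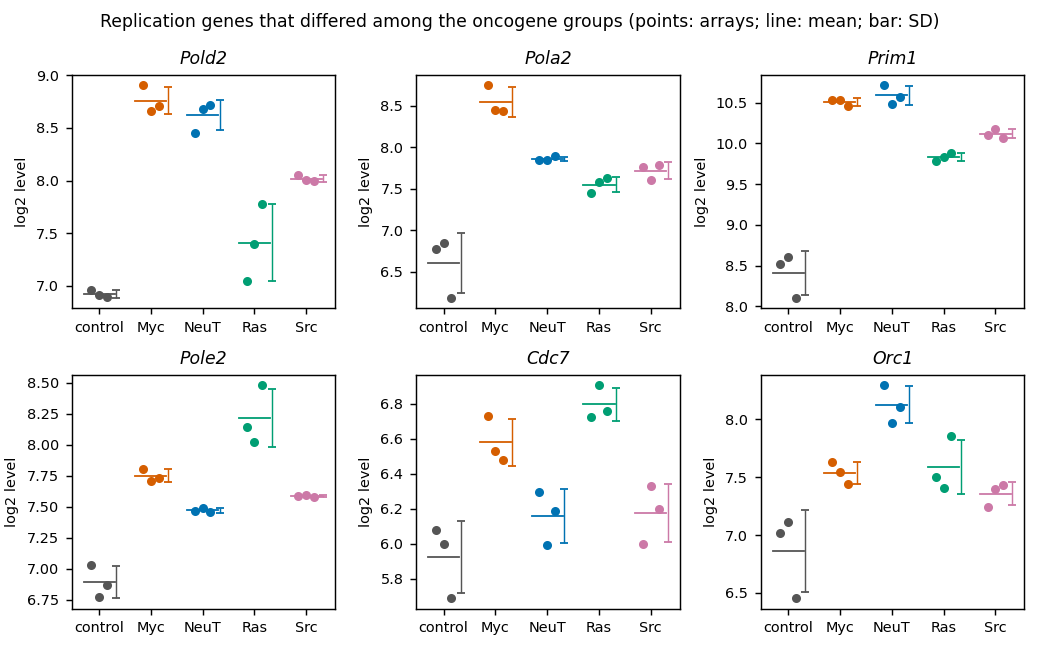
Log2 level of 6 members on the 15 arrays (points, by group), with the group mean as a line and the SD as a bar; each panel has its own scale. Pold2 and Pola2 are highest in Myc, Prim1 and Orc1 in NeuT, and Pole2 and Cdc7 in Ras.

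Pairs of oncogenes were compared gene by gene, with p-values adjusted over all genes within each pair. These comparisons do not involve the control samples except through the shared estimate of the spread. Leaving out control array 3 raised the count of members called in every pair. The share of all genes without that array was worked out for Myc against NeuT alone among the pairs. Between Myc and NeuT, 6 members were higher in Myc, beside 6.99% of all genes, and 2 were higher in NeuT, beside 7.95%. The largest differences were Pola2, higher in Myc by 0.69 ± 0.14 (adjusted p = 0.00452), and Orc1, higher in NeuT (Myc minus NeuT -0.59 ± 0.16, adjusted p = 0.0214). The median difference over the members was 0.00. This count of 8 was 13 without control array 3 (18.5% of all genes), 4 without Myc array 1, 5 without NeuT array 2 and 4 without NeuT array 3.

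Between Myc and Ras, 8 members were higher in Myc, beside 16.6% of all genes, and 3 in Ras, beside 11.8%. Pold2 was higher in Myc by 1.35 ± 0.14 (adjusted p = 5.66e-06), followed by Pola2 (0.99, adjusted p = 0.000108) and Prim1 (0.68, adjusted p = 0.000283). Atad2 was higher in Ras (Myc minus Ras -0.72 ± 0.18, adjusted p = 0.00769). The member median was 0.12, and 0.033 with quantile normalization of the arrays.

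Myc and Src differed in 7 members that were higher in Myc, beside 11.4% of all genes, and 1 higher in Src, beside 7.57%. Pola2 was higher in Myc by 0.83 ± 0.14 (adjusted p = 0.000954) and Mcm4 higher in Src (Myc minus Src -0.45 ± 0.15, adjusted p = 0.0473). This count fell whichever array of these groups was left out. It was 3 without Myc array 1, 5 without Myc array 2 or 3, 3 without Src array 1 or 3 and 4 without Src array 2. Without control array 3 it rose, with 8 members higher in Myc and 3 higher in Src. The share of all genes in these fits was not worked out. With quantile normalization the count was 4, also with no share of all genes worked out, and the member median went from 0.15 to 0.038.

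The most members differed between NeuT and Ras. There 16 were higher in NeuT, beside 16.5% of all genes, and 8 in Ras, beside 11.6%. Higher in NeuT were Pold2 (1.21 ± 0.14, adjusted p = 1.61e-05) and Prim1 (0.76 ± 0.11, adjusted p = 0.000112). Higher in Ras were Pole2 (NeuT minus Ras -0.74 ± 0.10, adjusted p = 6.46e-05) and Cdc7 (-0.64 ± 0.12, adjusted p = 0.00105). The member median was 0.21, and 0.10 with quantile normalization, under which 15 members were called. The share of all genes called under quantile normalization was not worked out. The count of 24 fell to 12 without NeuT array 3 and to 15 without Ras array 1.

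Between NeuT and Src, 8 members were higher in NeuT, beside 12.2% of all genes, and 3 in Src, beside 7.95%. Orc1 (0.77 ± 0.16, adjusted p = 0.0031) and Mcm10 (0.68 ± 0.13, adjusted p = 0.0016) were higher in NeuT, and Mcm4 in Src (NeuT minus Src -0.51 ± 0.15, adjusted p = 0.0235). The member median of 0.05 changed sign to -0.040 with quantile normalization. This count of 11 was 6 without NeuT array 2, NeuT array 3 or Src array 2, 5 without Src array 1 and 7 without Src array 3.

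In the comparison of Ras with Src, 3 members were higher in Ras, beside 12.1% of all genes, and 6 in Src, beside 14.1%. Pole2 (0.63 ± 0.10, adjusted p = 0.000337) and Cdc7 (0.62, adjusted p = 0.00156) were higher in Ras. Pold2 (Ras minus Src -0.61, adjusted p = 0.00515) and Chaf1b (-0.62 ± 0.19, adjusted p = 0.0239) were higher in Src. The member median of -0.04 turned to 0.038 with median centring of the arrays, and the count of 9 was 5 without Src array 1. With a fold of at least 2 required, 1 member passed between Myc and Ras (6.15% of all genes) and 1 between NeuT and Ras (5.97%), Pold2 in both. No member passed that minimum between Myc and NeuT (2.32%), Myc and Src (3.1%), NeuT and Src (3.56%) or Ras and Src (5.49%), against limma counts of 8, 8, 11 and 9 at the adjusted p alone. Over the 6 pairs 71 differences were called, and 35 of them kept their call and direction in every alternative run at the same call threshold. Those 35 include Pold2 in 5 pairs and Pola2, Pole2 and Prim1 in 3 each, Atad2 between Myc and Ras and Orc1 between NeuT and Src, but none of the differences given for Mcm4 and Chaf1b, nor that of Orc1 between Myc and NeuT.

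Other genes of replication, from a separate list of 42 measured genes, were counted in the same way. In the pooled lines 33 of 42 rose, beside 15.4% of all genes, and 0 fell, with a median of 0.69. Without control array 3, 31 rose, beside 12.3% of all genes. By group, 31 rose in Myc, 34 in NeuT, 30 in Ras and 28 in Src, beside the 15.9%, 15.2%, 13.3% and 14.2% of all genes given above, and 1 fell in Ras. Those counts were 31, 33, 26 and 25 without control array 3, beside 14.4%, 13.5%, 12.1% and 11.6% of all genes, and 2 fell in NeuT and 1 in Ras. The share of all genes that fell was not worked out. The largest rises were in the repair nuclease Exo1 (1.72 ± 0.12, adjusted p = 1.51e-07), the clamp loader subunit Dscc1 (1.49 ± 0.12, adjusted p = 6.13e-07) and the polymerase alpha anchor Wdhd1 (1.48 ± 0.12, adjusted p = 7e-07). The smallest called were in the histone chaperone Asf1a (0.27 ± 0.09, adjusted p = 0.0324), the polymerase epsilon subunit Pole4 (0.38 ± 0.12, adjusted p = 0.0309) and Mcm9 (0.40 ± 0.10, adjusted p = 0.00789), a relative of Mcm8. Without control array 3, Asf1a (adjusted p = 0.0528) and Pole4 (adjusted p = 0.0523) no longer passed, and Mcm9 was at an adjusted p = 0.0498.

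Regulators of entry into S phase, 24 genes measured, were more mixed: 16 rose and 1 fell in the pooled lines (14 and 1 without control array 3). Of all genes 15.4% rose there, and 12.3% without control array 3, while the share that fell was not worked out. The gene that fell was Rb1, the retinoblastoma protein that holds E2F factors in check (-0.98, adjusted p = 7.87e-05). Of the E2F activators, E2f1 rose (0.52 ± 0.10, adjusted p = 0.000727), E2f2 did not pass (0.20 ± 0.12, adjusted p = 0.215), and E2f3 rose (0.44 ± 0.12, adjusted p = 0.0154) but not without control array 3 (0.25, adjusted p = 0.129). The counts by group were 14 risen and 2 fallen in Myc, 16 and 2 in NeuT, 14 and 1 in Ras, and 13 and 2 in Src. In the same order, 15.9%, 15.2%, 13.3% and 14.2% of all genes rose. With control array 3 left out the counts were 12 and 2, 15 and 1, 12 and 2, and 13 and 2, and 14.4%, 13.5%, 12.1% and 11.6% of all genes rose.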

How the data were processed

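The deposited table holds log2 values, which the authors had normalized over the 15 arrays. The submitters' processing notes name RMA and Affymetrix Expression Console 1.1 without a role or order. How background was treated is not given in the sources used here. The 35556 probe sets comprised 21789 for a single gene, 1621 shared by several genes and 12146 without one. The brightest probe set was taken for the 999 genes with several of their own, which gave 19938 genes, with no filter on low values. The members and the lists of markers, other replication, S phase entry and mitosis genes were chosen with earlier results of these data known, so their directions are not independent evidence.

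A model with 5 group means was fitted with limma 3.58.1 in R 4.3.3 to all 15 arrays, with two-sided p-values adjusted by Benjamini-Hochberg over all genes. Differences carry SE from limma. Named with all arrays' values were the members with the largest and smallest pooled difference of each role, the 5 with the smallest F test p, Cdc7 for its level, and the extremes of each pair of oncogenes. Figures were drawn with matplotlib 3.10.9 in Python 3.11.15 (numpy 2.4.6, pandas 2.3.3). Promoters are from RefSeq, build GRCm38.p6; none was at hand for Gins1, Gins2, Gmnn, Mcm4, Pole, Prim2, Rfc2 and Atad2. Smooth muscle markers fell in 4 of 5 genes of the pooled lines, luminal markers in 3 of 5, fibroblast markers in 1 of 7 and leukocyte markers in 0 of 6 (0 of these rose). The share of all genes that fell was not worked out, and the part of these markers in the results was not tested.

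Alternatives were median centring, quantile normalization, leaving out dim genes, averaging probe sets, array weights, a robust trended variance, a fit of only the groups compared, a block for the replicate number, a fold minimum of 2 and leaving out each array. Same-numbered arrays of different groups had correlations of their deviations from -0.08 to 0.12 over 30 pairs. Not every pair was above 0.1, and the numbers were not used to pair the samples in the main fit. That rule is strict and cannot show that the samples are unpaired. In simulated data with 200 changed genes of 19938, the fit called 83.5% of 1.5-fold and 97% of 2-fold changes for the pooled lines, and 61% and 94% for Myc against NeuT. Of the calls in these comparisons, 1.61% to 6.2% were false. The simulated noise was normal and independent between genes, and fewer genes changed than in the data, so these rates may not hold there.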

Additional observations from a re-analysis of the deposited data

Results flagged for a closer look

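The following genes differed among the 4 oncogene groups by limma's F test, with the range between the highest and lowest group mean on the log2 scale; adjusted p ran from 1.02e-07 to 0.0395 over these genes. Among the helicase genes the range was 0.54 in Mcm2 (highest in NeuT, lowest in Ras), 0.51 in Mcm4 (Src, NeuT), 0.65 in Mcm8 (Myc, Ras) and 0.68 in Mcm10 (NeuT, Src). For origin and licensing it was 0.77 in Orc1 (NeuT, Src), 0.65 in Cdc6 (NeuT, Src), 0.56 in Gmnn (Myc, NeuT) and 0.64 in Cdc7 (Ras, NeuT). For polymerase and primase it was 0.76 in Prim1 (NeuT, Ras), 0.46 in Prim2 (NeuT, Src), 0.99 in Pola2 (Myc, Ras), 0.45 in Pold1 (Myc, Ras), 1.35 in Pold2 (Myc, Ras), 0.53 in Pole (Myc, Ras) and 0.74 in Pole2 (Ras, NeuT). The clamp loader genes had 0.39 in Rfc2 (NeuT, Ras), 0.42 in Rfc4 (Ras, NeuT) and 0.56 in Rfc5 (NeuT, Ras). Fen1 had 0.62 (Myc, Ras), Tyms 0.45 (Myc, NeuT), Atad2 0.72 (Ras, Myc) and Atad5 0.54 (Ras, NeuT).

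Outside the 40 members, the range was 0.61 in Dscc1 (Ras, NeuT), 0.52 in E2f3 (Myc, Src), 0.61 in Exo1 (Myc, Src), 1.12 in Wdhd1 (Myc, Src), 2.19 in Rbl1 (Src, Myc) and 1.76 in Pole3 (NeuT, Src). The last 2 were chosen after their values were seen.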

How the results depend on the processing

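Calls of members against control were mostly stable. They were 200 combinations of a gene with 1 of the 4 groups or with the pooled lines. Of these, 191 kept their side and direction under every alternative at the same call threshold, that is, apart from the fold minimum. All that changed were in single groups. In the pooled lines 40 members were called whichever array was left out (39 without dim genes, where 1 member was not tested). In Ras the count ran from 34, when only the groups compared were fitted, to 40 with median centring or quantile normalization. With a fold minimum of 2, the members called against control were 25 in the pooled lines, 26 in Myc, 24 in NeuT, 20 in Ras and 21 in Src. At limma's adjusted p alone those counts are 39 to 40. Between oncogenes the minimum left 0 in Myc against NeuT, Myc against Src, NeuT against Src and Ras against Src. It left 1 in Myc against Ras, in NeuT against Ras and in the F test. At the adjusted p alone the counts for the pairs and the F test are 8 to 24. The share of all genes is given above beside the counts with the fold minimum and those at the adjusted p alone. For the other alternatives that keep all arrays, that share was not worked out. Whether the members moved more than all genes under them therefore cannot be told. Array weights raised the counts of Myc against NeuT to 16 and of NeuT against Src to 18, and fitting only the groups compared raised them to 13 and 18. Quantile normalization lowered the counts to 4 in Myc against Src and 15 in NeuT against Ras, and to 5 for other replication genes in Myc against Src. It gave member medians of 1.11 in Src against control, 0.033 in Myc against Ras, 0.038 in Myc against Src, 0.10 in NeuT against Ras and -0.040 in NeuT against Src. Median centring gave 1.23 in NeuT against control and 0.087 in NeuT against Src. The cause of these changes was not tested.

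Leaving out each array gave member counts of 4 to 13 in Myc against NeuT, 10 to 14 in Myc against Ras, 3 to 11 in Myc against Src, 12 to 27 in NeuT against Ras, 5 to 14 in NeuT against Src, 5 to 11 in Ras against Src and 19 to 31 in the F test. For fits that left out an array other than control array 3, the share of all genes was not worked out. Without control array 3 it was worked out, among the pairs, for Myc against NeuT alone. Member medians against control ran from 0.93 to 1.20 in the pooled lines, 0.99 to 1.28 in Myc, 0.99 to 1.27 in NeuT, 0.80 to 1.07 in Ras and 0.90 to 1.10 in Src, with the lowest value of each without control array 3, and from 0.12 to 0.29 in NeuT against Ras. Counts of other replication genes ran from 5 to 19 in Myc against NeuT, 4 to 12 in Myc against Src and 5 to 11 in NeuT against Src.

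The replicate block changed little: with the replicate number as a block, members called were 40 in the pooled lines, 40 in Myc and 39 in each of NeuT, Ras and Src, 8, 10, 7, 19, 11 and 8 in the 6 pairs in the order of the report, and 23 in the F test. The share of all genes called with this block was not worked out. Of 30 same-numbered pairs of arrays 3 correlated above 0.1, and 10 of 15 arrays correlated best with an array of their own number, as a hint from the data and not the design. Levels near background limit Cdc7 most, and 3 arrays in a group limit the comparisons among oncogenes, where 36 of 71 called differences did not hold under every alternative, the fold minimum left aside.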

Other observations

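Mitosis genes rose beside the replication genes and were weaker in Src. Of 17 measured, 17 rose in the pooled lines, Myc, NeuT and Ras and 14 in Src, with median log2 differences from control of 1.16, 1.10, 1.37, 1.14 and 0.70. In the same order, 15.4%, 15.9%, 15.2%, 13.3% and 14.2% of all genes rose. The counts of mitosis genes were the same without control array 3, and their medians were 0.98, 0.94, 1.16, 1.03 and 0.54. Between the oncogenes, 13 of 17 were higher in NeuT than in Src (12.2% of all genes), 9 higher in Myc than in Src (11.4%) and 8 higher in Ras than in Src (12.1%). Their array medians against controls 1 and 2 were 0.46 to 0.64 in Src, below every Myc (0.75 to 1.10), NeuT (1.12 to 1.24) and Ras array (0.93 to 1.10). The replication genes had array medians of 0.87 to 0.97 in Src, between those of Ras (0.67 to 0.88) and Myc (0.92 to 1.05) with overlap. The difference between the lists was not tested.

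Rbl1, which encodes the pocket protein p107, was the S phase regulator with opposite calls among the lines. It was at 7.79, 7.78 and 7.20 in the controls, 6.96, 6.91 and 6.60 in Myc, 8.67, 8.28 and 8.28 in NeuT, 8.63, 8.78 and 8.94 in Ras, and 9.01, 8.95 and 9.07 in Src. Myc lay below all other arrays, and the other lines lay above the controls. Its differences from control were -0.77 ± 0.16 in Myc (limma, adjusted p = 0.00191), 0.82 in NeuT (adjusted p = 0.00131), 1.19 in Ras (adjusted p = 4.98e-05) and 1.42 in Src (adjusted p = 1.76e-05). They were -0.96, 0.63, 1.00 and 1.23 without control array 3, with the same calls.

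Pole3, a histone-fold subunit of polymerase epsilon, was high in NeuT. It was at 8.87, 8.82 and 8.68 in the controls, 9.75, 9.46 and 9.45 in Myc, 10.67, 10.68 and 10.65 in NeuT, 9.05, 8.70 and 9.23 in Ras, and 8.90, 8.86 and 8.98 in Src. It rose in NeuT (1.88 ± 0.12, limma, adjusted p = 5.33e-08) and Myc (0.76, adjusted p = 0.000173) and did not pass in Ras (0.20, adjusted p = 0.236) or Src (0.12, adjusted p = 0.464). Its values without control array 3 were 1.83 in NeuT, 0.71 in Myc, 0.15 in Ras and 0.07 in Src, with the same calls.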
